A study of Homo sapiens with 6 samples.

Results

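The genes described here are 52 human genes of the response to low oxygen and of glucose breakdown, chosen by symbol from a table of 60605 genes. They fall into 3 roles: 7 genes of the hypoxia-inducible factor (HIF) pathway itself, 21 HIF targets outside glucose metabolism, and 24 genes of glucose uptake, glycolysis and its control. The symbols were matched to the table's Ensembl identifiers, and 49 of the 52 passed the filter on low counts, among 14479 genes that did. RNA sequencing measured transcripts in UMUC3, an established human bladder cancer cell line. In the TIM-1 group, 3 libraries came from cells infected with a PLVX lentiviral vector that carries TIM-1 (a cell surface receptor, the product of HAVCR1) with the green fluorescent protein ZsGreen on the same transcript. In the empty vector group, 3 libraries came from cells infected with the same backbone and ZsGreen without TIM-1. The libraries are numbered 1 to 3 in each group. The labels state neither what the numbers mark nor whether the libraries came from separate cultures, so each p-value speaks of the variation among these 6 libraries alone, and that variation may be technical. In bulk RNA, a large change in few cells and a small change in many cannot be told apart. The labels also give no oxygen level, glucose level or cell density.

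HIF is a transcription factor made of an alpha subunit (HIF-1α from HIF1A or HIF-2α from EPAS1) and ARNT. When oxygen is plentiful, the prolyl hydroxylases EGLN1, EGLN2 and EGLN3 mark the alpha subunit, VHL binds it and it is degraded. When oxygen falls, the alpha subunit is kept and HIF raises genes for oxygen delivery, pH control and mitochondrial turnover together with glucose transporters and glycolytic enzymes. Because the control acts on the protein, the transcript levels of HIF1A and EPAS1 do not report HIF activity.

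HIF binds DNA at a core of ACGTG. The core was searched on both strands (ACGTG or CACGT) in the 250 bases before each transcription start, in RefSeq promoter windows on GRCh38.p14. Of the 52 genes, 46 had a window, and 28 of these (60.9%) held the core in at least 1 window. Over the whole table, 5935 of 27305 genes with a window (21.7%) held it. Counted by window, 31 of 77 windows of the 46 genes (40.3%) held the core, against 6501 of 35116 windows of all genes (18.5%). The palindrome CACGTG, an E-box that other factors also bind, holds the core on both strands and occurred in 6.34% of all windows. No window was listed for VHL, NDRG1, STC1, VEGFA, BNIP3L or SLC2A3. A match is a description of the letters and not a site of binding.

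The following promoter stretches show how differently these genes are built, and each ends at the base before the transcription start. Capitals mark the core on either strand and the rest is in lower case. PPP1R3C (chr10:91633072-91633321, minus strand) held 3 separate matches, PLOD2 (chr3:146161185-146161434, minus strand) held 2, and CA9 (chr9:35673828-35673927, plus strand) held 1 match 18 bases before its start. Among the glycolytic genes, LDHA (chr11:18394313-18394562, plus strand) held 3, PGK1 (chrX:78103998-78104247, plus strand) held 2 and ENO2 (chr12:6914330-6914579, plus strand) held 1. CA12 (chr15:63381847-63381946, minus strand) and SLC2A1 (chr1:42958869-42958968, minus strand) held none.
CA9: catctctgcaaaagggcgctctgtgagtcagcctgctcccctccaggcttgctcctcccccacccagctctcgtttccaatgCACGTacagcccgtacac
PPP1R3C: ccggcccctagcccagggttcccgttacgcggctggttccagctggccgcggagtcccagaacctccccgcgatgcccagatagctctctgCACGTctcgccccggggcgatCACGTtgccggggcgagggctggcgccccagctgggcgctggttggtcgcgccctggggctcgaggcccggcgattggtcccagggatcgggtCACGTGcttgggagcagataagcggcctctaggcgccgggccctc
PLOD2: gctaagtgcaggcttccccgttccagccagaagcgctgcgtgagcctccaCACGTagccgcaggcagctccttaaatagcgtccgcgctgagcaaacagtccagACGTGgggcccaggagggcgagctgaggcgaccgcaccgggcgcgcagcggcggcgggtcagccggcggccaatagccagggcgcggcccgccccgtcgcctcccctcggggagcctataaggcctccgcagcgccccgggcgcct
CA12: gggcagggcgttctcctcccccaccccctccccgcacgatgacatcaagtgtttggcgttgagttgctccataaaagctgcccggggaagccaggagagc
LDHA: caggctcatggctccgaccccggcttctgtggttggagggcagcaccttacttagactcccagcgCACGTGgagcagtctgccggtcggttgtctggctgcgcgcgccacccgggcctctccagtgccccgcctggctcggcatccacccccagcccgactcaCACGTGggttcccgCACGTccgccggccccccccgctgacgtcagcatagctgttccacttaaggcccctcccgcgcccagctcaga
PGK1: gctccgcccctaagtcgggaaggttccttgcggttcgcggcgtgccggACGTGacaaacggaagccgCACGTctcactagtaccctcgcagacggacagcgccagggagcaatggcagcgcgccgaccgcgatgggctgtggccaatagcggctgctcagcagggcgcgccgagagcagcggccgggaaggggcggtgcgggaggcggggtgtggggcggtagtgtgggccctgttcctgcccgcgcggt
ENO2: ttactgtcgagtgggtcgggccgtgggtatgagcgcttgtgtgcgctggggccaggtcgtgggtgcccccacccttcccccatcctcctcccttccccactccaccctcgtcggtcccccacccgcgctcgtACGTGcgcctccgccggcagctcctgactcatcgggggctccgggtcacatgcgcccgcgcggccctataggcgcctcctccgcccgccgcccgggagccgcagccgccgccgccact
SLC2A1: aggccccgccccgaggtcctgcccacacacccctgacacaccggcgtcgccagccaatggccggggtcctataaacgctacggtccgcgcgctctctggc

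The libraries held 14312387 to 18605914 assigned counts. HAVCR1, which checks the labels, had 7069, 9824 and 11479 counts in TIM-1 libraries 1 to 3 and 4, 0 and 0 in the empty vector libraries. Library 1 differed from 2 and 3 in both groups. In a fit that also held the vector, 13.2% of tested genes were higher in replicate 1 and 13.2% were lower (edgeR quasi-likelihood test, Benjamini-Hochberg adjusted). Mitochondrial genes took 4.20 to 5.08% of counts, with no gap between replicate 1 and the rest. VIM and KRT18 were abundant, but the epithelial gene EPCAM and the urothelial genes UPK3A and KRT20 were at 0 in all 6 libraries. KRT18 was lower with TIM-1 (paired log2 fold change -0.24, edgeR adjusted p = 0.00946, 0.0599 when the block sets only replicate 1 apart). The urothelial regulators GATA3 (12 to 38 counts) and PPARG (70 to 156 counts) moved with the group in opposite directions, GATA3 lower and PPARG higher with TIM-1 (edgeR adjusted p = 0.0457 and 0.0185, replicate number as block; GATA3 0.0608 when the block sets only replicate 1 apart). Of the 4 fibroblast markers DCN was at 0 in all libraries, and only COL1A1 was abundant enough to test. Their summed level was 7.3 to 13.2 CPM (counts scaled to a common library size) with TIM-1 and 3.92 to 7.45 without, and COL1A1 was higher with TIM-1 (paired log2 fold change 0.90, edgeR adjusted p = 0.000265, replicate number as block). Whether these shifts in identity genes play a part in the results below was not tested.

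With the vector as the only term, none of the 49 tested genes passed an adjusted p of 0.05 (edgeR), where 0.0138% of all tested genes were called higher and 0% lower. At an unadjusted p under 0.05 the same test had 3 of the 49 higher (3.95% of all genes) and 0 lower (1.54% of all genes), and DESeq2 called none after adjustment. Same-numbered libraries deviated together in all 3 pairs. Numbers 2 and 3, however, correlated about as well across numbers (0.26 and 0.19) as within them (0.23 and 0.26), so mainly number 1 is set apart. With that limit, the replicate number was also fitted as a block. In that fit 23 of the 49 rose with TIM-1 and none fell, where 3.22% of all tested genes were called higher and 1.79% lower. With a correction for gene GC content in the same fit, the genes called over the whole table moved from 466 higher and 259 lower to 699 higher and 633 lower, and 26 of the 49 rose. Below, "rose" and "fell" refer to this paired test, and the unpaired adjusted p of the 23 genes lay between 0.644 and 0.981. The 23 comprised 15 of 20 tested non-metabolic HIF targets, 8 of 23 tested glucose genes and none of 6 tested HIF pathway genes. The median paired log2 fold change was 0.35 for the targets, 0.15 for the glucose genes, -0.06 for the HIF pathway and 0.00010 for all tested genes. Without the pair of replicate 2, 11 of the 23 were still called (7 targets and 4 glucose genes), and 21 were still called without each of the other pairs. When the block set only replicate 1 apart, 21 of the 49 rose, where 2.4% of all tested genes were called higher and 1.12% lower.

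**Figure D1:**
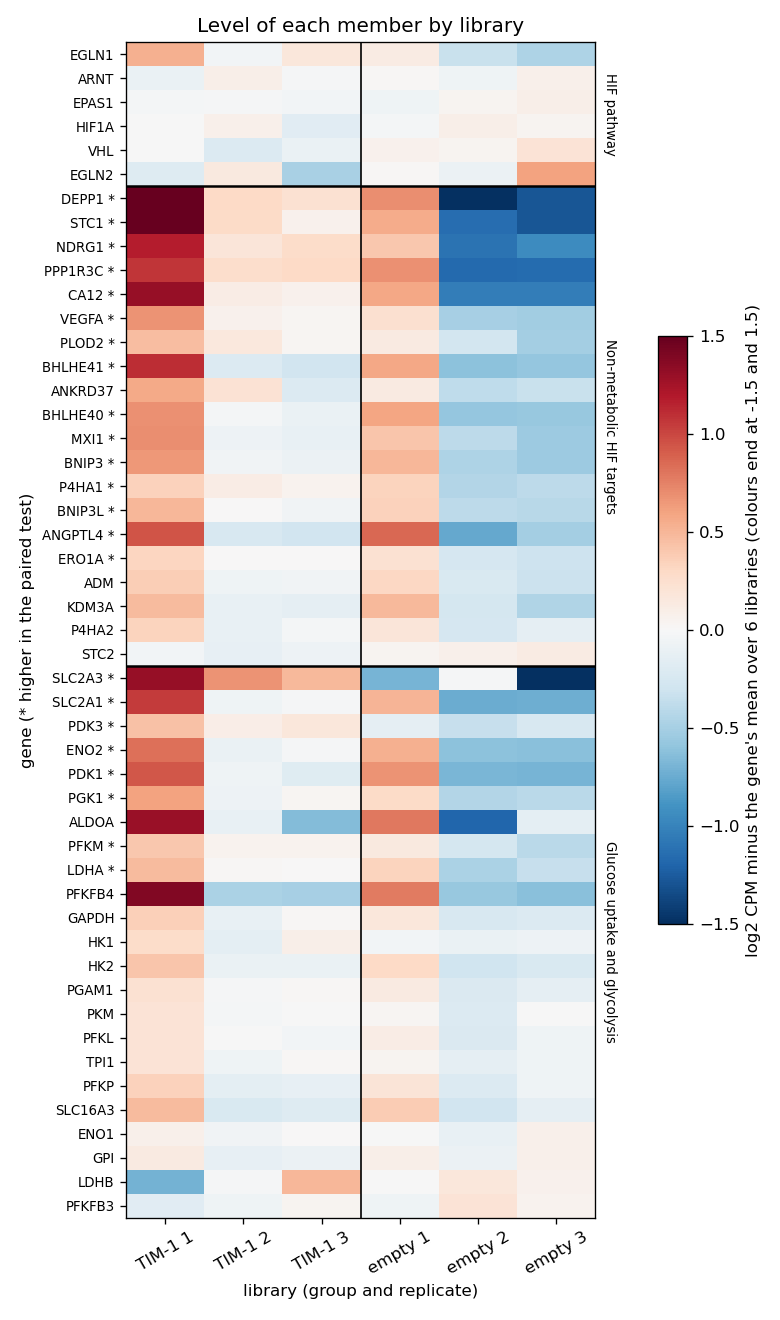
Colour gives the level of each tested gene (rows, by role) in each of the 6 libraries (columns), as log2 CPM minus the gene's mean over the libraries. In 20 of the 23 called genes TIM-1 library 1 is highest, then empty vector library 1, then TIM-1 libraries 2 and 3, then empty vector libraries 2 and 3. The uncalled ADM, P4HA2, HK2, PFKL, PFKFB4, TPI1, GAPDH and PGAM1 have the same order, while HIF1A, EPAS1 and ARNT do not. The share of all tested genes with this order was not counted.

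In the HIF pathway, neither alpha subunit was called. HIF1A stood at 118, 124 and 105 CPM in TIM-1 libraries 1 to 3 and at 115, 126 and 122 in empty vector libraries 1 to 3, in that order throughout. EPAS1 stood at 341, 344 and 339 against 333, 358 and 371. The groups overlapped for both. Throughout, ± after a log2 fold change gives the standard error (SE) of the edgeR fit, which draws on variation across genes. It is not the spread over the 3 pairs, which can be wider. Paired log2 fold changes were -0.07 ± 0.07 for HIF1A and -0.05 ± 0.06 for EPAS1 (edgeR adjusted p = 0.659 and 0.703). ARNT, their partner, was at 62.6 ± 4.0 (SD, n = 3) with TIM-1 and 63.4 ± 3.1 without.

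The oxygen-sensing enzymes were much less abundant. EGLN1, itself induced by HIF as a brake on the response, stood at 14.3, 9.59 and 11.1 CPM with TIM-1 and 10.8, 7.79 and 7.18 without. It was higher in every pair, with a paired log2 fold change of 0.45 ± 0.14 that missed the threshold (edgeR adjusted p = 0.0512, 0.0258 with the GC correction). EGLN2 stood at 5.80, 7.36 and 4.75 against 6.70, 6.25 and 10.1, with overlapping groups, and 30.6% of its annotated exon bases lie in another gene on the same strand, so its counts are uncertain. EGLN3 had 1 count in TIM-1 library 3 and 0 in the other 5 libraries, where a count of 0 allows up to 3 counts. VHL was at 36.2, 31.4 and 33.7 with TIM-1 and 38.0, 37.2 and 41.9 without. The VHL groups did not overlap, TIM-1 being lower, as in 5.06% of all tested genes, and the gene was not called (edgeR adjusted p = 0.170).

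The HIF targets outside glucose metabolism held the largest increases apart from that of the low-count gene SLC2A3. DEPP1, a stress-induced protein that affects autophagy, was at 82.2, 23.9 and 22.7 CPM in TIM-1 libraries 1 to 3 and at 31.4, 4.70 and 7.96 in empty vector libraries 1 to 3. Each TIM-1 library exceeded its same-numbered partner, but empty vector library 1 was above TIM-1 libraries 2 and 3, so the groups overlapped. Its log2 ratios in pairs 1 to 3 were 1.39, 2.35 and 1.51. Its paired log2 fold change came to 1.66 ± 0.13 (SE of the fit, edgeR adjusted p = 1.4e-10). Since 23.3% of its exon bases overlap another gene on some strand, its level is uncertain.

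The secreted hormone STC1 had 46.9, 19.9 and 17.1 CPM with TIM-1 against 24.1, 7.42 and 6.70 without (paired log2 fold change 1.20 ± 0.12, edgeR adjusted p = 1.23e-10). NDRG1, a hypoxia- and stress-induced cytoplasmic protein, had 431, 215 and 230 against 252, 88.5 and 98.8 (1.08 ± 0.08, edgeR adjusted p = 9.39e-11). CA12, a membrane carbonic anhydrase that handles acid outside the cell, had 300, 131 and 127 against 181, 58.9 and 59.2 (0.99 ± 0.07, edgeR adjusted p = 4.96e-13). For STC1, NDRG1 and CA12 the order was the same: TIM-1 library 1 highest, then empty vector library 1, then TIM-1 libraries 2 and 3, then empty vector libraries 2 and 3. CA9, the carbonic anhydrase most often used as a hypoxia marker, had only 7, 7 and 21 counts with TIM-1 and 6, 1 and 0 without, and did not pass the filter on low counts although its promoter stretch above holds the HIF core. STC2, the relative of STC1, was at 30.6, 28.8 and 29.6 with TIM-1 and 32.3, 33.0 and 34.0 without, a small difference without overlap in the other direction that was not called (edgeR adjusted p = 0.364).

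PPP1R3C, which directs protein phosphatase 1 to glycogen, rose from 23.1, 6.43 and 6.46 CPM without TIM-1 to 30.2, 17.3 and 17.7 with it (paired log2 fold change 1.01 ± 0.17, edgeR adjusted p = 0.0023). Its difference was small in pair 1 and over 2-fold in pairs 2 and 3. VEGFA, the main angiogenic growth factor, was at 81.6, 53.5 and 52.2 with TIM-1 and 60.2, 36.3 and 35.6 without (0.52 ± 0.08, edgeR adjusted p = 7.57e-06). PLOD2, a lysyl hydroxylase of collagen, was at 342, 275 and 253 against 272, 205 and 174 (0.43 ± 0.06, edgeR adjusted p = 2.22e-06). For PLOD2, empty vector library 1 lay between TIM-1 libraries 2 and 3. It was the 1 member called without pairing when the low-count filter was dropped (edgeR adjusted p = 0.021).

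Among the other called targets the increases were smaller. BNIP3 and BNIP3L mark mitochondria for degradation. BNIP3 had 305, 187 and 183 CPM with TIM-1 and 274, 141 and 133 without, and BNIP3L had 257, 183 and 176 against 231, 139 and 136. Their paired log2 fold changes were 0.34 ± 0.06 and 0.31 ± 0.06 (edgeR adjusted p = 0.000453 and 0.00153). BHLHE40 and BHLHE41 are transcriptional repressors of the circadian circuit. BHLHE40 had 157, 95.7 and 90.8 against 147, 65.2 and 65.8, and BHLHE41 had 41.3, 16.7 and 15.8 against 28.6, 12.6 and 12.8 (0.36 ± 0.07 and 0.42 ± 0.11, edgeR adjusted p = 0.0016 and 0.0121). In both repressors the TIM-1 libraries 2 and 3 lay below empty vector library 1.

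The collagen prolyl hydroxylase subunit P4HA1 had 117, 98.8 and 94.9 CPM with TIM-1 and 115, 67.5 and 69.6 without (paired log2 fold change 0.33 ± 0.08, edgeR adjusted p = 0.00672). Its sister P4HA2 had 98.1, 71.8 and 76.0 against 87.9, 65.3 and 70.8 and was not called (0.13 ± 0.07, edgeR adjusted p = 0.310). P4HA1 therefore differed in pairs 2 and 3 and hardly in pair 1. MXI1, an antagonist of MYC, had 74.3, 43.5 and 42.5 against 61.1, 34.8 and 31.4 (0.34 ± 0.08, edgeR adjusted p = 0.00509). ANGPTL4, an inhibitor of lipoprotein lipase, had 107, 47.2 and 45.4 against 101, 32.7 and 38.9 (0.26 ± 0.08, edgeR adjusted p = 0.0407, 0.0828 when the block sets only replicate 1 apart). ERO1A, an oxidase of the endoplasmic reticulum, had 324, 259 and 259 against 302, 217 and 209 (0.22 ± 0.06, edgeR adjusted p = 0.0223). ANGPTL4 and ERO1A were the smallest called changes of this role.

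The targets that did not pass were ADM, KDM3A, P4HA2, ANKRD37 and STC2. ADM, a vasodilating peptide, and KDM3A, a histone demethylase, had paired log2 fold changes of 0.16 ± 0.06 and 0.15 ± 0.07 (edgeR adjusted p = 0.138 and 0.191). ANKRD37 had only 2.29 to 4.42 CPM, with a log2 fold change of 0.40 ± 0.25 (edgeR adjusted p = 0.406).

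**Figure D2:**
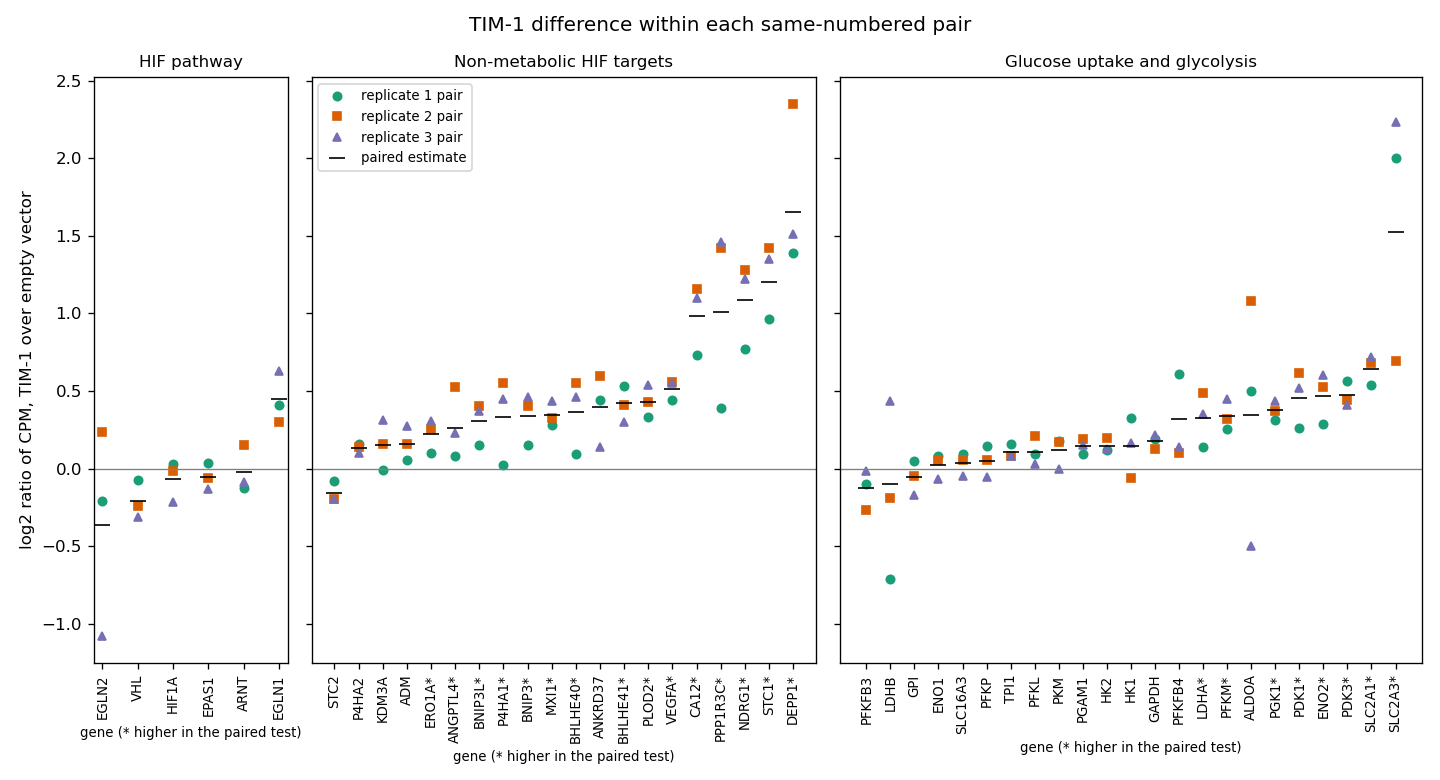
Log2 ratio of CPM, TIM-1 over empty vector, in each same-numbered pair (vertical axis), for each tested gene by role, with the paired estimate as a dash. Of the 49 genes, 34 lie above 0 in every pair, against 20.1% of all tested genes, and 3 lie below 0 in every pair, against 19.1%. The 34 include all 23 called genes, for which the test itself favours this. Pair 1 has the smallest of the 3 ratios in 20 of the 23, a share that was not counted for other genes.

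In the glucose genes, TIM-1 libraries differed at the entry step, at 3 enzymes of the pathway and at the branch point to the mitochondria. The glucose transporter SLC2A1 (GLUT1) was at 289, 133 and 138 CPM with TIM-1 and 199, 83.2 and 83.6 without. Its paired log2 fold change of 0.64 ± 0.06 had the smallest p of the role (edgeR adjusted p = 3.42e-10), and its printed promoter stretch holds no HIF core. The neuronal-type transporter SLC2A3 (GLUT3) was close to the detection limit, at 29, 21 and 21 counts against 8, 13 and 4. Its groups did not overlap, as in 6.6% of all tested genes with TIM-1 higher, and it rose by a paired log2 fold change of 1.53 ± 0.45 (edgeR adjusted p = 0.0356, 0.0664 when the block sets only replicate 1 apart).

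Of the enzymes between glucose and pyruvate, PFKM, PGK1 and ENO2 rose. PGK1, which makes the first ATP of the pathway, was at 1325, 827 and 888 CPM with TIM-1 against 1064, 640 and 655 (paired log2 fold change 0.37 ± 0.06, edgeR adjusted p = 1.32e-05). ENO2, the enolase typical of neurons, was at 359, 189 and 200 against 294, 132 and 131 (0.47 ± 0.06, edgeR adjusted p = 1.18e-06). PFKM, the muscle-type phosphofructokinase, was at 101, 78.8 and 78.3 against 84.1, 63.2 and 57.3 (0.34 ± 0.07, edgeR adjusted p = 0.00152). In PFKM, PGK1 and ENO2 empty vector library 1 was above TIM-1 libraries 2 and 3, as in every called target but PLOD2.

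At the exit of the pathway, LDHA turns pyruvate into lactate. It was at 3248, 2373 and 2351 CPM with TIM-1 and 2957, 1691 and 1842 without (paired log2 fold change 0.33 ± 0.06, edgeR adjusted p = 0.000448). The pyruvate dehydrogenase kinases PDK1 and PDK3 restrain the entry of pyruvate into mitochondria. PDK1 was at 99.97, 50.0 and 46.2 against 83.4, 32.6 and 32.3, and PDK3 at 28.4, 22.5 and 23.6 against 19.2, 16.6 and 17.8 (0.45 ± 0.08 and 0.47 ± 0.11, edgeR adjusted p = 0.000133 and 0.00322). PDK3 was higher in all 3 TIM-1 libraries than in any empty vector library. It had the smallest unpaired p among the 23 genes (unadjusted 0.00497, edgeR adjusted p = 0.644).

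Most of the abundant glycolytic transcripts were not called. By RPKM (counts scaled to library size and exon length, so that genes can be compared), the most abundant in the empty vector cells were GAPDH (mean 1474), ENO1 (879), TPI1 (492), LDHA (348), PGAM1 (274), PKM (197) and PGK1 (143). Of these 7 only LDHA and PGK1 rose. GAPDH, the oxidising step, was at 5957, 4275 and 4686 CPM with TIM-1 against 5227, 3924 and 4031 (paired log2 fold change 0.18 ± 0.06, edgeR adjusted p = 0.0652, 0.0371 with the GC correction). ENO1 was at 4940, 4505 and 4707 against 4667, 4328 and 4922 (0.03 ± 0.06, edgeR adjusted p = 0.874). TPI1, PGAM1 and PKM had log2 fold changes of 0.11, 0.14 and 0.12, each with an SE of 0.06 (edgeR adjusted p = 0.329, 0.146 and 0.280). The whole glycolytic role took 2.28, 1.75 and 1.82% of counts in TIM-1 libraries 1 to 3 and 2.06, 1.55 and 1.63% in empty vector libraries 1 to 3. The non-metabolic targets took 0.331, 0.208 and 0.204% against 0.271, 0.149 and 0.140%.

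The upper enzymes and the lactate exporter were not called. HK1, the general hexokinase, was at 27.9, 20.7 and 24.5 CPM against 22.2, 21.5 and 21.8, and HK2, the inducible one, at 190, 133 and 132 against 175, 116 and 121 (paired log2 fold change 0.15 for both, with SE of 0.11 and 0.06, edgeR adjusted p = 0.489 and 0.190). PFKL was at 198, 172 and 168 against 186, 149 and 164, and PFKP at 584, 417 and 422 against 529, 401 and 439 (0.11 and 0.05, edgeR adjusted p = 0.359 and 0.725). Groups overlapped in all 4. Of the enzymes that set fructose 2,6-bisphosphate, the activator of phosphofructokinase, PFKFB3 was at 94.3, 101 and 109 against 101, 122 and 110 (-0.13 ± 0.07, edgeR adjusted p = 0.318). PFKFB4 was at 65.9, 18.1 and 17.9 against 43.2, 16.9 and 16.2 (0.32 ± 0.10, edgeR adjusted p = 0.0606, 0.0142 with the GC correction), so the groups stood apart mainly in library 1. GPI and the lactate exporter SLC16A3 had log2 fold changes of -0.06 and 0.03 (edgeR adjusted p = 0.676 and 0.864).

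Low counts limit 3 glucose genes. The aldolase ALDOA, usually among the most abundant glycolytic transcripts, had only 45, 19 and 15 counts with TIM-1 and 35, 9 and 19 without. Of its annotated exon bases, 42.3% are shared on the same strand with another annotated gene, which had 25 to 47 counts, so its counts are uncertain and its difference was not called (edgeR adjusted p = 0.680). ALDOC had 14, 11 and 9 counts against 7, 5 and 3 and did not pass the filter. LDHB, the lactate dehydrogenase of aerobic tissue, was at 1.38, 2.23 and 3.18 CPM against 2.26, 2.54 and 2.35, with 33.4% of its exon bases shared on the same strand, and was not called (edgeR adjusted p = 0.906).

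The same genes differed between replicate 1 and replicates 2 and 3, within both groups. The contrast was chosen because earlier results of these data had shown replicate 1 apart, with hypoxia-responsive genes high there. Its outcome was thus known in part beforehand, and its p-values describe that difference without being a fresh test of it. In this contrast 36 of the 49 tested genes were higher in replicate 1 and none was lower, where 13.2% of all tested genes were called each way (edgeR). They comprised 18 of 20 targets, 17 of 23 glucose genes and 1 of 6 HIF pathway genes, EGLN1. The log2 differences ran from 0.17 for GPI to 2.02 for DEPP1, and the median was 0.78 for the targets, 0.41 for the glucose genes, -0.04 for the HIF pathway and -0.0046 for all tested genes. DEPP1 (2.02), STC1 (1.53), CA12 (1.41), ANGPTL4 (1.35), NDRG1 (1.19) and SLC2A1 (1.18) were examples (edgeR adjusted p = 3.83e-14, 1.48e-15, 1.95e-19, 6.32e-19, 7.7e-13 and 1.85e-20). The labels say nothing of how replicate 1 differed.

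Of the 23 genes that rose with TIM-1, 21 were also higher in replicate 1, all but PDK3 and SLC2A3. Over the whole table, 200 of the 466 genes that rose with TIM-1 were also higher in replicate 1. As a share of all tested genes, 1.38% passed both tests as higher, and 21 of the 49 tested members did. In these 21 the replicate 1 difference was larger than the TIM-1 difference. Empty vector library 1 lay above TIM-1 libraries 2 and 3 in 36 of the 49 tested members, 20 of them called for TIM-1, and in 39.3% of all tested genes. Another 15 genes were higher in replicate 1 and not called for TIM-1: EGLN1, ADM, KDM3A, P4HA2, HK2, GPI, PFKL, PFKP, PFKFB4, ALDOA, TPI1, GAPDH, PGAM1, PKM and SLC16A3. PFKFB4 was the clearest of these, with a log2 difference of 1.64 between replicates (edgeR adjusted p = 5.68e-18) beside the 0.32 for TIM-1. The TIM-1 and replicate contrasts share all 6 libraries, so no correlation between them is given.

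**Figure D3:**
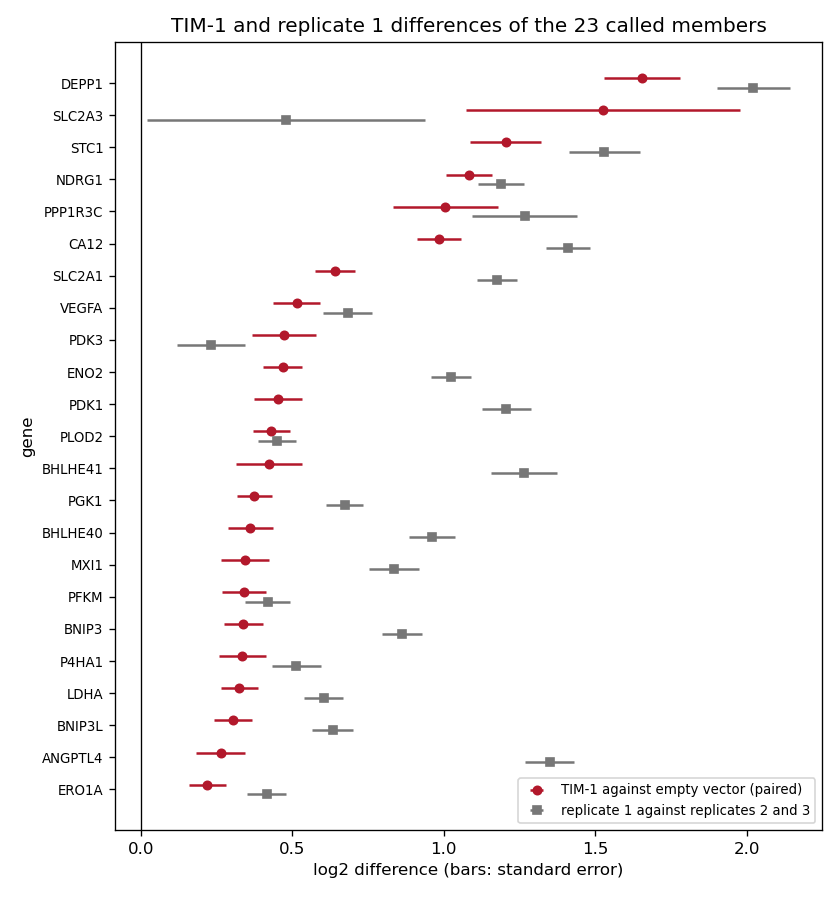
For each of the 23 genes that rose with TIM-1 (vertical axis), the paired log2 fold change with TIM-1 (circles) and the log2 difference of replicate 1 from replicates 2 and 3 (squares). Bars give 1 standard error of the edgeR fit, not the spread over pairs. The square lies to the right of the circle in 21 genes; in PDK3 (0.23 against 0.47) and SLC2A3 (0.48 against 1.53) it lies to the left.

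Whether the TIM-1 difference itself depended on the replicate was tested as an interaction. None of the 49 genes passed (edgeR adjusted p from 0.742 to 0.991), where 0% of all tested genes were called either way. In simulated counts this test recovered 12.3% of true log2 differences of 0.5 and 57.6% of those of 1. Small differences would thus mostly be missed. At an unadjusted p under 0.05, 9 of the 49 and 5.38% of all tested genes passed, and DESeq2 called none of the 49. The 9 comprised 6 targets and 3 glucose genes. The TIM-1 difference was smaller in replicate 1 in 28 of the 49 genes and in 50.4% of all tested genes, a share near the background. Of the 23 called genes 20 had this sign, but they were picked in the same libraries and none of them passed the interaction test. The share with this sign among the other genes called over the whole table was not counted. PPP1R3C had the most negative estimate of the 23 at -1.05 on the log2 scale. Without empty vector library 2, NDRG1, P4HA1 and PPP1R3C passed with negative values, and without empty vector library 3 NDRG1 did. Over the whole table the fit without empty vector library 2 called 169 genes higher and 64 lower, and that without library 3 called 1 each way.

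Isoform partners were compared within libraries as ratios of RPKM. The ENO2 to ENO1 ratio was 0.0895, 0.0518 and 0.0523 in TIM-1 libraries 1 to 3 and 0.0777, 0.0375 and 0.0329 in empty vector libraries 1 to 3. It was higher with TIM-1 in every pair, although ENO1 remained the main enolase by far and empty vector library 1 was above TIM-1 libraries 2 and 3. The STC1 to STC2 ratio was 2.26, 1.02 and 0.85 against 1.10, 0.332 and 0.291. STC1 therefore exceeded STC2 in both libraries numbered 1 and, of the others, in TIM-1 library 2. The ratio of PFKFB4 to PFKFB3 was 0.699, 0.178 and 0.164 against 0.428, 0.139 and 0.147, and thus followed the library number more than the vector.

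Among all the ratios computed, that of PFKM to PFKL was the 1 in which the groups did not overlap. Levels of single genes did not overlap in 6.6% of all tested genes with TIM-1 higher and in 5.06% with TIM-1 lower. Separation of 1 ratio among many is therefore no mark of this pair. PFKM to PFKL was 0.619, 0.560 and 0.570 with TIM-1 and 0.552, 0.519 and 0.426 without. The PDK1 to PDK3 ratio was 1.17, 0.738 and 0.649 against 1.45, 0.654 and 0.603, with PDK1 above PDK3 only in the 2 libraries numbered 1. BNIP3 to BNIP3L was 0.962, 0.823 and 0.843 against 0.958, 0.822 and 0.789, with little difference between same-numbered libraries. EPAS1 to HIF1A was 2.04, 1.95 and 2.27 against 2.04, 2.01 and 2.15, with no order by vector or number. With 3 libraries a side an exact permutation test cannot go below p = 0.10, and none was run on the ratios.

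**Figure D4:**
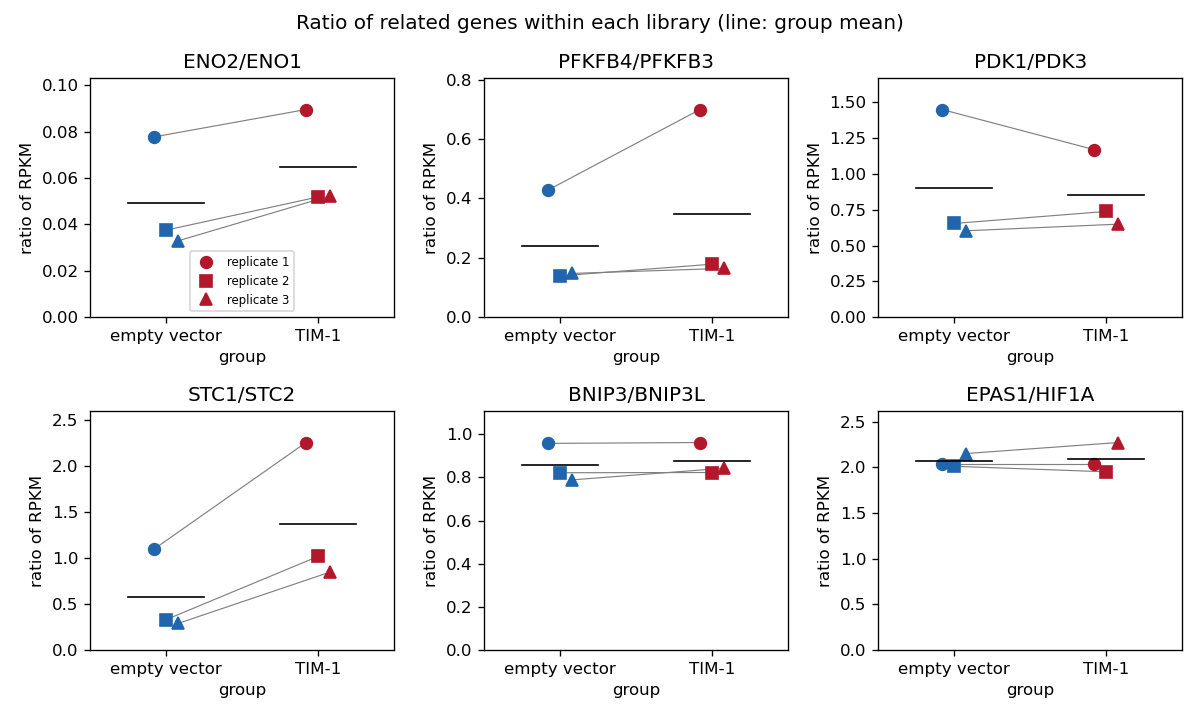
Ratio of isoform partners (RPKM, linear axes from 0) in each library. For STC1/STC2 and ENO2/ENO1 each TIM-1 point lies above its same-numbered empty vector point, while EPAS1/HIF1A stays between 1.95 and 2.27.

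The call held for 10 of the 23 in all 9 fits with a block: CA12, NDRG1, STC1, DEPP1, VEGFA, PLOD2, PPP1R3C, SLC2A1, PGK1 and ENO2. The 9 include the main paired fit and those without each pair in turn, and all reuse the same libraries. How many genes of the whole table held in all 9 was not counted. Of the 18 called genes with a listed promoter window, 15 held the HIF core (83.3%), all but CA12, DEPP1 and SLC2A1. Of the 28 uncalled genes with a window, 13 held it (46.4%), and of all genes with a window 21.7%. Counted by window the shares were 15 of 28 (53.6%) for called genes, 16 of 49 (32.7%) for uncalled genes and 18.5% for all. The called NDRG1, STC1, VEGFA, BNIP3L and SLC2A3 and the uncalled VHL had no window. Whether the core bears on the calls was not tested. The uncalled genes with the core include ALDOA, GAPDH, TPI1, GPI and HK2.

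Genes of the HIF response outside the 52 were read as a comparison. In a list of 22 other hypoxia-induced genes, 20 were tested, 8 rose with TIM-1 and 1 fell. Over all tested genes 3.22% were called higher and 1.79% lower. When the block set only replicate 1 apart, 6 of the 20 were higher and 1 lower, where 2.4% and 1.12% of all tested genes were. Without a block none of the 20 was called. DDIT4, an inhibitor of mTORC1, had a paired log2 fold change of 0.39 ± 0.07, PPFIA4 of 0.77 ± 0.13 and the collagen cross-linking enzyme LOXL2 of 0.31 ± 0.06 (edgeR adjusted p = 6.33e-05, 0.000152 and 0.000389). In replicate 1, 16 of these 20 were higher and 1 was lower, where 13.2% of all tested genes were called each way. Of 8 further HIF pathway genes tested, only CITED2, which competes with HIF for the coactivator p300, rose (0.36 ± 0.07, edgeR adjusted p = 0.000596).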

How the data were processed

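RNA from 6 UMUC3 libraries (TIM-1 vector, n = 3; empty vector, n = 3) was sequenced. The authors deposited raw counts per Ensembl gene; per the submitters' processing notes HISAT2 2.0.5, featureCounts 1.5.0-p3, DESeq2 1.16.1 and hg38 were used. The annotation release, the strand setting and how multi-mapped reads were treated are not stated in the labels or notes, so counts of overlapping genes are uncertain. Positions, exon lengths and GC content came from GENCODE 29 (GRCh38), and promoter windows from RefSeq (GRCh38.p14). Counts were tested with edgeR 4.0.16 in R 4.3.3 (TMM, minimum count 10, robust quasi-likelihood F test, Benjamini-Hochberg over 14479 genes, threshold 0.05), with DESeq2 1.42.0 as an alternative. The scripts were tested on simulated data with known changes. Of true log2 changes of 0.5, the unpaired test recovered 12.7%, the interaction test 12.3% and the paired test 66.7%. Depth was 14312387 to 18605914 counts per library. Counting error was not set apart from the spread between libraries gene by gene. It weighs most in the low-count genes named. It is not small either in DEPP1, STC1 and PPP1R3C, whose lowest libraries held 76, 111 and 104 counts.

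The main fit had no block. Libraries that share a number deviated from their groups' means together, with correlations over genes of 0.53, 0.23 and 0.26 for numbers 1, 2 and 3, which by the rule used (each above 0.1) pairs the samples. The pairing comes from the data, not the labels: TIM-1 library 3 also correlated at 0.26 with empty vector library 2, and TIM-1 library 2 at 0.19 with empty vector library 3, so mainly number 1 is set apart. Deviations within a group sum to 0, so a shift of library 1 shared by both groups by itself raises all these correlations. The rule therefore cannot show that numbers 2 and 3 are rightly matched. The spread between libraries (biological coefficient of variation) was 14.2% without and 6.67% with the block.

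The genes, roles, lists and the contrast of replicate 1 with the others were chosen with earlier results of these data known. Values per library were given for genes called in either fit and for isoform partners, and others by range; of each other list, up to 3 called genes with the smallest p, or, with none called, the 2 of highest mean level. The values of 1 gene of these lists are not reported here.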

Additional observations from a re-analysis of the deposited data

How the results depend on the processing

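Without a block, the count of all genes higher with TIM-1 went from 2 to 60 with no low-count filter and 24 with DESeq2, and that of genes lower from 0 to 12 and 1. It was 1 to 8 higher and 0 to 1 lower when each library was left out in turn. Of the genes described here, 0 were higher, and 1 (PLOD2) with no low-count filter. With the replicate block the counts over all genes were 466 higher and 259 lower. They were 699 and 633 with GC correction, 469 and 279 with RLE size factors, 436 and 290 with no low-count filter, 131 and 78 with DESeq2 and 348 and 162 with a block of 2 levels. Leaving out the pair numbered 1, 2 or 3 gave 440, 152 and 339 higher and 398, 57 and 134 lower. The genes described here were higher in 23, 26, 23, 23, 16 and 21 cases with the block in the same order of settings, and in 21, 11 and 22 without the pair numbered 1, 2 or 3. In the paired fits the targets called were 7 to 14 and the glucose genes 4 to 8 when a pair was left out, the lowest without replicate 2, and 1 HIF pathway gene (EGLN1) was called with GC correction. Genes higher in replicate 1 over the whole table went from 1912 to 932 with DESeq2 and genes lower from 1912 to 1042. Leaving out libraries gave 1159 to 1960 higher and 1102 to 2027 lower, and 0 to 1 members lower (PFKFB3, without empty vector replicate 3). For the interaction, genes higher went from 0 to 4 with no low-count filter and to 2 with DESeq2, and leaving out libraries gave 0 to 169 higher, 0 to 64 lower and 0 to 3 of the genes described here lower. The interaction could not be fitted without either library numbered 1. The cause of these changes was not tested.

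In the paired fit signs turned for 8 genes, none of them called; EGLN2, at -0.36 with all pairs, had the largest difference among these. Without the pair of replicate 3 the log2 fold change was 0.0093 for HIF1A, 0.018 for ARNT, 0.023 for EGLN2 and 0.0027 for GPI. Without the pair of replicate 1 it was 0.027 for ARNT, -0.0032 for PFKP, -0.0070 for ENO1, 0.14 for LDHB and -0.0011 for SLC16A3. In the unpaired fit, over the fits that each left out 1 library, ANGPTL4 ranged from -0.31 to 0.89, BHLHE41 from -0.15 to 0.95 and PDK1 from -0.040 to 1.00, lowest when TIM-1 replicate 1 was left out and highest when empty vector replicate 1 was. ANGPTL4 was also below 0 when either other empty vector library was left out, at -0.08 and -0.01. Among the 23 paired calls, depth limits SLC2A3 most, with 4 to 29 counts.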

Other observations

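Neighbouring pathways of glucose use outside the hypoxia genes were read beside all tested genes, of which the paired test called 3.22% higher and 1.79% lower. Counts from lists this short do not set these pathways apart from that share. None of 10 tested further glycolysis genes was called by edgeR with the replicate number as a block; SLC16A1, a lactate and pyruvate transporter, and PGM1 were the most abundant (paired log2 fold changes -0.15 ± 0.06 and 0.16 ± 0.07, edgeR adjusted p = 0.170 and 0.183). None of 10 tested genes for pyruvate entry into mitochondria was called either, with the pyruvate dehydrogenase subunits PDHA1 and DLD the most abundant (-0.08 ± 0.06 and -0.15 ± 0.06, edgeR adjusted p = 0.553 and 0.186). Of 7 genes of the pentose phosphate branch, PGD fell by 0.22 (edgeR adjusted p = 0.0235, 0.0568 when the block sets only replicate 1 apart), with means of 168 ± 14 CPM with TIM-1 and 196 ± 23 without (SD, n = 3).

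TXNIP, an inhibitor of glucose uptake that the glucose-responsive factors MLXIP and MLX raise, differed from the HIF targets in its pattern over libraries. It had 105, 131 and 145 counts in TIM-1 libraries 1 to 3 and 65, 61 and 35 in empty vector libraries 1 to 3, so that the groups did not overlap. It rose with TIM-1 (paired log2 fold change 1.24 ± 0.20, edgeR adjusted p = 2.13e-05, 0.379 without the block), while its difference between replicate 1 and the others was 0.12 ± 0.21 (edgeR adjusted p = 0.712). It was the 1 gene called of 4 on its list. MLXIP and MLX themselves had paired log2 fold changes of -0.09 and -0.03 (edgeR adjusted p = 0.611 and 0.878).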
